A study of Mus musculus with 16 samples.

Results

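The genes described here are 10 regulators of anterior brain patterning, namely Otx1, Otx2, Emx1, Emx2, En1, En2, Gbx2, Fezf1, Fezf2 and Hesx1, out of 22232 protein-coding gene names of the mouse. They were listed by name, with earlier results of these data known. Of these, 8 encode homeobox transcription factors, while Fezf1 and Fezf2 are FEZ-family zinc finger genes and do not belong to the homeobox class. For each gene, chromatin immunoprecipitation sequencing (ChIP-seq) peaks centred within 2500 bp of a start site of any of its protein-coding transcripts were counted. Their widths were summed, and the sum is called the covered length below. A fold is the enrichment over background that the peak caller gave to a peak.

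The samples were mouse embryonic stem cells (ES) of the 46C line, which carries a Sox1-GFP reporter of neural fate, and neural precursor cells (NPC) collected after 6 days of neural differentiation in suspension. H2AK119ub1 and H3K27me3 were each profiled in wild type and shPCGF5 cells at both stages, which gives 4 cell populations and 8 peak lists, and PCGF5 was pulled down through a Flag tag in ES and in NPC, which gives 2 more. ES were grown on inactivated embryonic fibroblasts with LIF and inhibitors of differentiation. The labels call the depleted cells shPCGF5. The methods of the study describe both lentiviral hairpin lines picked as clones and a nuclease knockout, and a single clone behind each profile cannot be told apart from the depletion itself. The Flag libraries are labelled wild type, and according to the study the tag sat on the endogenous Pcgf5 gene of Sox1-GFP cells. Each group had 1 library, so no replicate error exists and no test between conditions could be made. Another 6 libraries were inputs and were not used here.

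H2AK119ub1, a monoubiquitinated form of histone H2A, is placed by Polycomb repressive complex 1 (PRC1), of which PCGF5 is a subunit in one variant form. H3K27me3, a trimethylated form of histone H3, is placed by Polycomb repressive complex 2. Both marks are typical of CpG-rich start sites of silent developmental regulators, and homeobox genes are textbook targets. In the embryo, Otx2 specifies forebrain and midbrain, and Gbx2 specifies anterior hindbrain. The border between their domains positions the midbrain-hindbrain organiser, around which En1 and En2 are expressed. Otx1 acts in the cerebral cortex, Emx1 and Emx2 in the dorsal telencephalon and Fezf1 and Fezf2 in the forebrain, while Hesx1 is a repressor needed for anterior forebrain and pituitary development.

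The histone lists held 3845 to 14759 peaks, and the Flag-PCGF5 lists 653 in ES and 12013 in NPC. The files gave no read totals. Sequencing depth is therefore not known, and a gene without a peak is a gene without a called peak. Identity was checked with H3K27me3 at marker genes. Of 6 ES markers, 1 had a peak in wild type ES and 1 in shPCGF5 ES (Esrrb in both), against 4 in wild type NPC (Zfp42, Esrrb, Klf4 and Tbx3) and 3 in shPCGF5 NPC. Of 5 neural precursor markers, 3 had a peak in wild type ES, shPCGF5 ES and wild type NPC and 4 in shPCGF5 NPC. Pax6 was among them in every histone list, so these markers did not separate the stages. Sox1, planned as a further neural marker, was absent from the annotation used and was not counted. For H2AK119ub1, 2 of these 5 had a peak in wild type ES and 3 in shPCGF5 ES. In NPC, 1 had one in wild type (Pax6) and 4 in shPCGF5 cells (Nes, Pax6, Cdh2 and Pou3f2). Of 5 fibroblast markers, 2, 4, 3 and 3 had an H3K27me3 peak in wild type ES, shPCGF5 ES, wild type NPC and shPCGF5 NPC, and the part of feeder cells in the values below was not tested.

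The sequences that go with the results are shown first, from the mm9 assembly (NCBIM37) in the direction of transcription, with every CG dinucleotide, the target of CpG methylation, in capitals. CG reads the same on both strands. The first stretch of Otx2 was taken because H3K27me3 reached it in only 1 library. Fezf2 was taken because its start-site window, not this stretch, had a peak in all 8 histone lists, and Hesx1 because its window had none. Each of these 3 is the 250 bp before the most upstream annotated start site and holds no annotated exon. The second stretch of Otx2 is the 201 bp around the summit of its upstream H3K27me3 peak of highest fold in wild type NPC.
Otx2 upstream, chr14:49287320-49287569, minus strand: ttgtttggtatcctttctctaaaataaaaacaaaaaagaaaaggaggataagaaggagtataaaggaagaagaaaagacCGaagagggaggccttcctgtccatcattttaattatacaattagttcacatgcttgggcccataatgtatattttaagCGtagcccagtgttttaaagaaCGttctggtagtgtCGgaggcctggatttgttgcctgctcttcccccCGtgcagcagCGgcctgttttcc
Otx2 summit, chr14:49288284-49288484, minus strand: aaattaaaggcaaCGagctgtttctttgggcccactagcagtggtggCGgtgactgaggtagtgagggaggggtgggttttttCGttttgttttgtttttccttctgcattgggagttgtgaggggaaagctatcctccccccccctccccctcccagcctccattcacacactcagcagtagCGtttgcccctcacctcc
Fezf2 upstream, chr14:13178380-13178629, minus strand: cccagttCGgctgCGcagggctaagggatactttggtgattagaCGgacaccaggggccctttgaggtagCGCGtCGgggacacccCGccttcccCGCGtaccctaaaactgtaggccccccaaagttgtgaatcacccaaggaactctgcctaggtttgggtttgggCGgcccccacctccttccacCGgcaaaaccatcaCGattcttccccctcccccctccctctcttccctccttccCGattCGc
Hesx1 upstream, chr14:27813298-27813547, plus strand: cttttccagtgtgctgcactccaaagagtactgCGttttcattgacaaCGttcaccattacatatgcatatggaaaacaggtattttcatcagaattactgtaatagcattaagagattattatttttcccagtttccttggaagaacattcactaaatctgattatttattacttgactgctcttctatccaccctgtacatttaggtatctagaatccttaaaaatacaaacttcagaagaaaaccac
These hold 6 CpGs in Otx2 upstream, 4 around the Otx2 summit, 14 in Fezf2 and 2 in Hesx1. Over the 22227 genes with a full window, 36.5% had at least as many upstream CpGs as Fezf2 and 83.3% as many as Hesx1. The Fezf2 stretch lay wholly within H3K27me3 peaks in both NPC libraries (250 bp each) and had 74 bp in shPCGF5 ES. The Otx2 upstream stretch had 60 bp under H3K27me3 in wild type NPC and no peak in the other lists. No peak of any of the 10 lists reached the Hesx1 stretch.

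Most of the 10 genes carried both marks already in ES, and in NPC 9 did so in wild type and 8 in shPCGF5 cells. For H2AK119ub1, 6 of 10 members had a peak in wild type ES (6.69% of all protein-coding genes did), 8 in shPCGF5 ES (5.96%), 9 in wild type NPC (4.98%) and 8 in shPCGF5 NPC (4.17%). For H3K27me3, the counts were 8 in wild type ES (13.4%), 8 in shPCGF5 ES (12.9%), 9 in wild type NPC (15.7%) and 8 in shPCGF5 NPC (15.5%). Otx1, Emx1, Emx2, En1, En2 and Fezf2 had a peak in all 8 histone lists, which 316 genes did (1.42%). Gbx2 and Fezf1 lacked one only in the H2AK119ub1 list of wild type ES. Otx2 had peaks in 2 lists and Hesx1 in none. Marked members were also covered over a greater length than marked genes in general. The median covered length of H3K27me3 in wild type NPC was 3940 bp over the 9 marked members and 1300 bp over all 3480 marked genes, and in shPCGF5 NPC it was 3760 bp over 8 members and 940 bp over 3435 genes. For H2AK119ub1 in wild type NPC the medians were 1900 and 387 bp. This was not particular to the members. Marked genes among 32 related patterning regulators had H3K27me3 medians of 4670 bp in wild type NPC and 3680 bp in shPCGF5 NPC. Their H2AK119ub1 median in wild type NPC was 1740 bp. Otx1 and Otx2 also had longer windows (6283 and 10713 bp) than the other members (5001 bp).

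**Figure D1:**
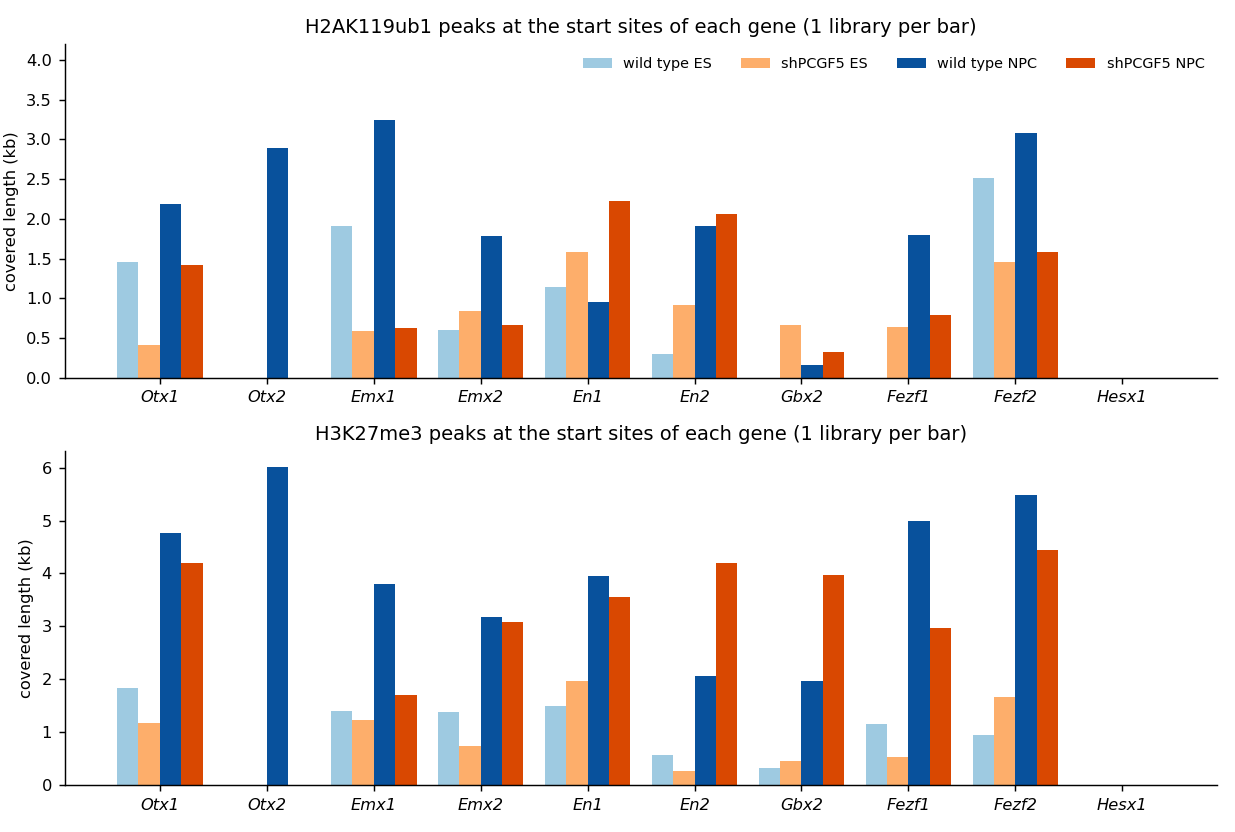
Covered length (kb, vertical axis, from 0) of H2AK119ub1 (top) and H3K27me3 (bottom) peaks centred within 2500 bp of a start site, for each member gene, with 1 bar per library in the order wild type ES, shPCGF5 ES, wild type NPC and shPCGF5 NPC and no error bars because each group had 1 library. Otx2 has bars only in wild type NPC (2893 and 6013 bp), Hesx1 has none, and the H3K27me3 bars of the other genes are higher in NPC than in ES within each genotype.

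Otx2 stood apart from the other members. H3K27me3 covered 6013 bp in 8 peaks in wild type NPC and 0 bp in wild type ES, shPCGF5 ES and shPCGF5 NPC. H2AK119ub1 covered 2893 bp in 9 peaks in wild type NPC and 0 bp in the same 3 populations. Thus both marks were called in wild type NPC only. The gene spans chr14:49277354-49287319 on the minus strand and has 7 start sites, which gave it a window of 10713 bp, against 5001 bp for members with a single start site. H3K27me3 peaks filled 56.1% of that window and H2AK119ub1 peaks 27.1%. The longest H3K27me3 peak was 3067 bp wide, had a fold of 2.80 and ran over the most upstream start sites and into the gene. The highest fold, 5.84, belonged to an 889 bp peak whose summit lay at -1201 bp from the reference start (the start site from which distances are counted, with minus for upstream), and its sequence is the summit stretch above. Of the 9 H2AK119ub1 peaks, 5 were centred in introns and 4 upstream, with folds of 2.70 to 4.64. These were not the highest-scoring peaks of their lists. The best H3K27me3 peak had a score percentile of 74.2 and the best H2AK119ub1 peak one of 57.0. The 3067 bp H3K27me3 peak had one of 6.72, and the other H2AK119ub1 peaks had 7.86 to 37.0.

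The absence of peaks at Otx2 in shPCGF5 NPC was not a matter of the window. The nearest H3K27me3 peak of shPCGF5 NPC lay 539808 bp from the closest start site and the nearest H2AK119ub1 peak 80377 bp. In wild type ES the nearest H3K27me3 peak lay 5123 bp away, outside the window, and the nearest H2AK119ub1 peak 174491 bp away. In shPCGF5 ES the distances were 189484 bp for H3K27me3 and 451480 bp for H2AK119ub1. Of the 3480 genes with H3K27me3 in wild type NPC, 832 (23.9%) had none in shPCGF5 NPC, with a median covered length of 558 bp in wild type NPC. Among these 832, Otx2 was the second longest after Ltbp4, a gene outside the members that was named after its value was seen. For H2AK119ub1, 546 of 1108 genes (49.3%) had a peak in wild type NPC and none in shPCGF5 NPC, with a median of 240 bp, and Otx2 ranked 5. Otx2 was the only member in either class, 1 of 9 members compared for each mark, where 37.0% of the genes compared lost H2AK119ub1 and 19.5% lost H3K27me3. Both marks in wild type NPC with neither in the other 3 populations was a pattern of 38 genes (0.171%), Otx2 being the one with the longest H3K27me3 coverage, followed by Adrb3 with 2819 bp and Nr5a2 with 2760 bp. The windows of these genes differed in length (6095 bp for Adrb3 and 10002 bp for Nr5a2). All these ranks also count low-scoring peaks, among them the 3067 bp H3K27me3 peak of Otx2 at score percentile 6.72. None of 32 related patterning regulators, listed with the methods, had the pattern.

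**Figure D2:**
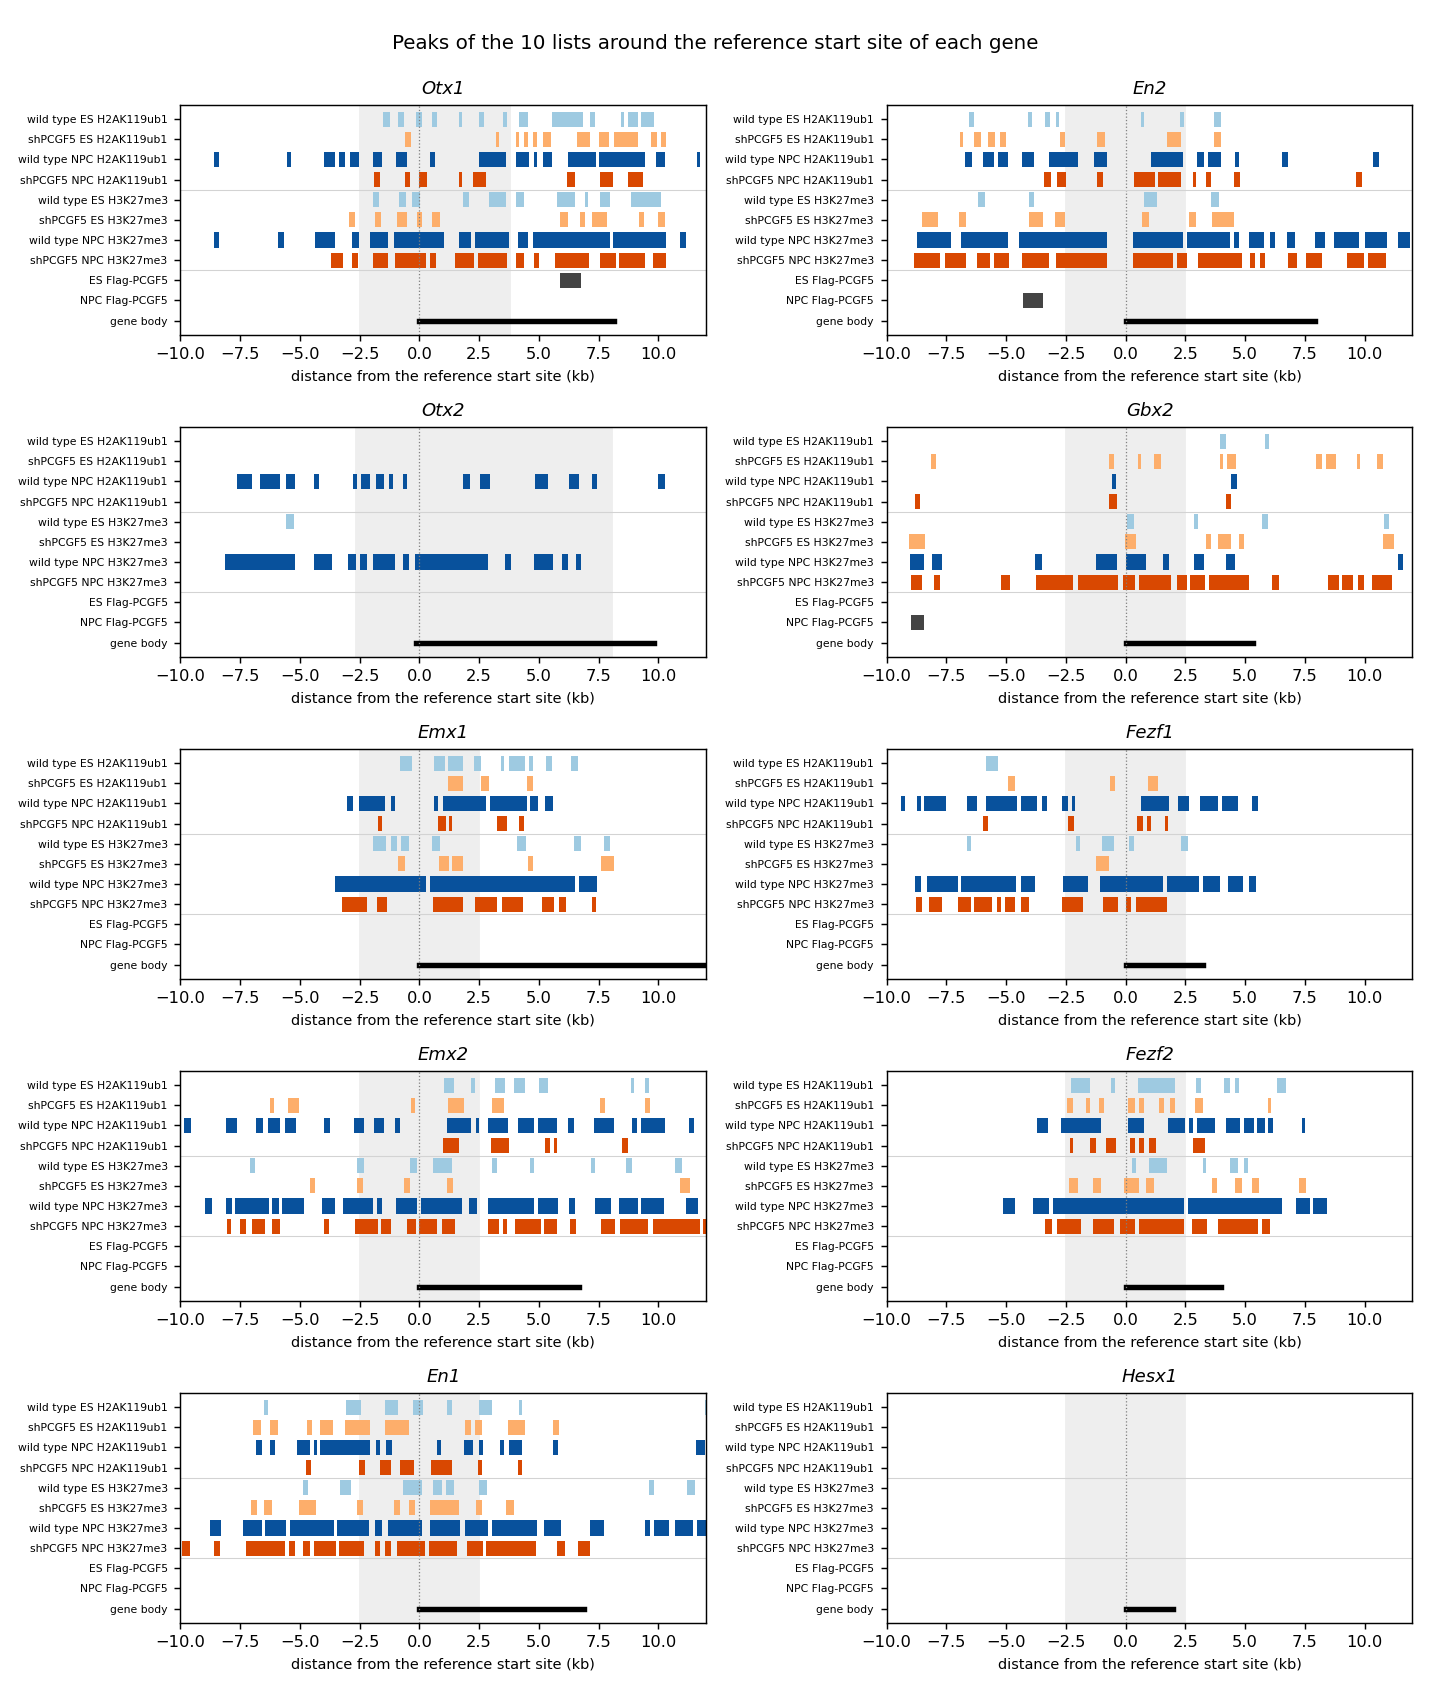
Peaks of the 10 lists (rows, 8 histone and 2 Flag-PCGF5) within 10 kb upstream and 12 kb downstream of the reference start site of each gene (horizontal axis, kb, transcription to the right). Coloured bars are peaks to scale, the black line is the gene body and the grey area spans the start-site window; the Otx2 panel has bars in both wild type NPC rows and 1 outside the window in wild type ES H3K27me3, and the Hesx1 panel has no bars.

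Otx1, the paralogue of Otx2, was marked in all 8 histone lists. H2AK119ub1 covered 1462 bp in wild type ES, 409 bp in shPCGF5 ES, 2180 bp in wild type NPC and 1418 bp in shPCGF5 NPC. H3K27me3 covered 1836, 1174, 4770 and 4197 bp in the same order. Both marks were longer in NPC than in ES within a genotype and longer in wild type than in shPCGF5 cells within a stage. Within 1000 bp of a start site, base pairs under peaks gave differences (shPCGF5 minus wild type) of 6 bp for H2AK119ub1 in NPC and 36 bp for H3K27me3 in ES. Of the 6283 bp of its window, 75.9% lay in H3K27me3 peaks in wild type NPC and 66.8% in shPCGF5 NPC. The mean absolute difference in log2(covered bp + 100) over the 8 histone lists was 3.04 between Otx1 and Otx2. Between Emx1 and Emx2 it was 0.58, between En1 and En2 1.03 and between Fezf1 and Fezf2 1.24, against a median of 1.29 over all 45 pairs of members.

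Emx1 and Emx2, which act in the developing cortex, gave the closest pair of paralogues. At Emx1, H2AK119ub1 covered 1914 bp in wild type ES, 592 bp in shPCGF5 ES, 3248 bp in wild type NPC and 621 bp in shPCGF5 NPC, so that both shPCGF5 values were under both wild type values. In NPC the difference (shPCGF5 minus wild type) was 155 bp with a window of 1000 bp and 20 bp for base pairs inside it. H3K27me3 at Emx1 covered 1406, 1231, 3793 and 1705 bp. The share of the Emx1 window inside H3K27me3 peaks was 97.2% in wild type NPC and 43.6% in shPCGF5 NPC, and for H2AK119ub1 it was 58.5% and 12.4%. At Emx2, H2AK119ub1 covered 598, 845, 1788 and 659 bp in the 4 populations and H3K27me3 1381, 732, 3171 and 3076 bp. The Emx2 window was 74.9% filled by H3K27me3 in wild type NPC and 57.4% in shPCGF5 NPC. For both genes the H2AK119ub1 value of wild type NPC was the highest of the 4.

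Fezf1 and Fezf2 are forebrain repressors with zinc fingers. Fezf2, known for specifying subcerebral projection neurons, had the longest covered length of all members, 21183 bp summed over the 8 histone lists, followed by Otx1 with 17446 bp and En1 with 16848 bp. At Fezf2, H3K27me3 covered 946 bp in wild type ES, 1671 bp in shPCGF5 ES, 5478 bp in wild type NPC and 4449 bp in shPCGF5 NPC. In wild type NPC this was a single peak that filled 98.9% of the window, while in shPCGF5 NPC 4 peaks filled 81.3%. H2AK119ub1 at Fezf2 covered 2513, 1460, 3083 and 1583 bp, longer in wild type than in shPCGF5 cells at both stages. With a window of 1000 bp the order turned, with differences (shPCGF5 minus wild type) of 310 bp in ES and 224 bp in NPC, and base pairs inside 1000 bp gave 265 bp in NPC. At Fezf1, H3K27me3 covered 1159, 536, 4987 and 2961 bp and H2AK119ub1 0, 636, 1798 and 794 bp. The Fezf1 window was 86.4% filled by H3K27me3 in wild type NPC and 56.1% in shPCGF5 NPC.

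The genes of the midbrain-hindbrain region gave another picture than Otx2. At Gbx2, H3K27me3 covered 312 bp in wild type ES, 444 bp in shPCGF5 ES, 1974 bp in wild type NPC and 3975 bp in shPCGF5 NPC, where Otx2 had none. The share of the Gbx2 window inside H3K27me3 peaks was 39.5% in wild type NPC and 84.0% in shPCGF5 NPC. The added length lay away from the start site. Within 1000 bp of it, shPCGF5 NPC had 178 bp more under peaks, and counted by peak centre the difference there was -1168 bp. H2AK119ub1 at Gbx2 was short, with 0, 669, 159 and 322 bp in the 4 populations. The window of Gbx2 also holds a start site of D130058E05Rik, so its peaks are shared with that gene.

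En1 and En2 had H3K27me3 in every population. At En1 it covered 1487 bp in wild type ES, 1964 bp in shPCGF5 ES, 3945 bp in wild type NPC and 3555 bp in shPCGF5 NPC, and H2AK119ub1 covered 1144, 1580, 949 and 2224 bp. The share of the En1 window inside H2AK119ub1 peaks was 27.9% in wild type NPC and 45.0% in shPCGF5 NPC. At En2, H3K27me3 covered 566, 271, 2061 and 4205 bp and H2AK119ub1 300, 916, 1904 and 2060 bp. The difference in H3K27me3 at En2 between NPC genotypes came from the assignment of peaks by their centre. A wide upstream peak of wild type NPC, from -4446 to -764 bp, had its centre outside the window, while in shPCGF5 NPC a peak from -2899 to -778 bp had its centre inside. The share of the En2 window under H3K27me3 was 75.9% in wild type NPC and 74.5% in shPCGF5 NPC. The H3K27me3 folds at En2 were the highest of the members in both NPC libraries, 10.6 in wild type and 10.0 in shPCGF5.

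Hesx1 had no peak of any list at its start site or in its body. The nearest peak among the 8 histone lists was 305583 bp from its start, in H3K27me3 of wild type ES, and the nearest NPC Flag-PCGF5 peak was 98796 bp away. No peak in any of the 10 lists was also found for 14714 genes (66.2%), among them Cer1, a secreted antagonist of anterior signalling and the only one of the related regulators. Hesx1 differed from the other members in CpG content over the wider window, but not in the 250 bp before the reference start. There Gbx2, marked in 7 histone lists, had 2 CpGs as Hesx1 did. Otx2 and Emx1 had 8 each in that stretch, against a median of 9 over all genes. Within 2500 bp of the reference start, Hesx1 had 62 CpGs against 95 for the median gene, and 68.9% of genes had at least as many. The other members had 208 (Otx2) to 272 (En2) CpGs, and 5.77% to 1.35% of genes had at least as many. Of 7053 genes with no more CpGs than Hesx1, 150 (2.13%) had H3K27me3 in wild type NPC, and of 1282 genes with at least as many as Otx2, 588 (45.9%) did. Otx2 had the lowest count of the 9 marked members, 208 against 213 for Fezf2, the next. Whether CpG content has a part in these patterns was not tested.

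**Figure D3:**
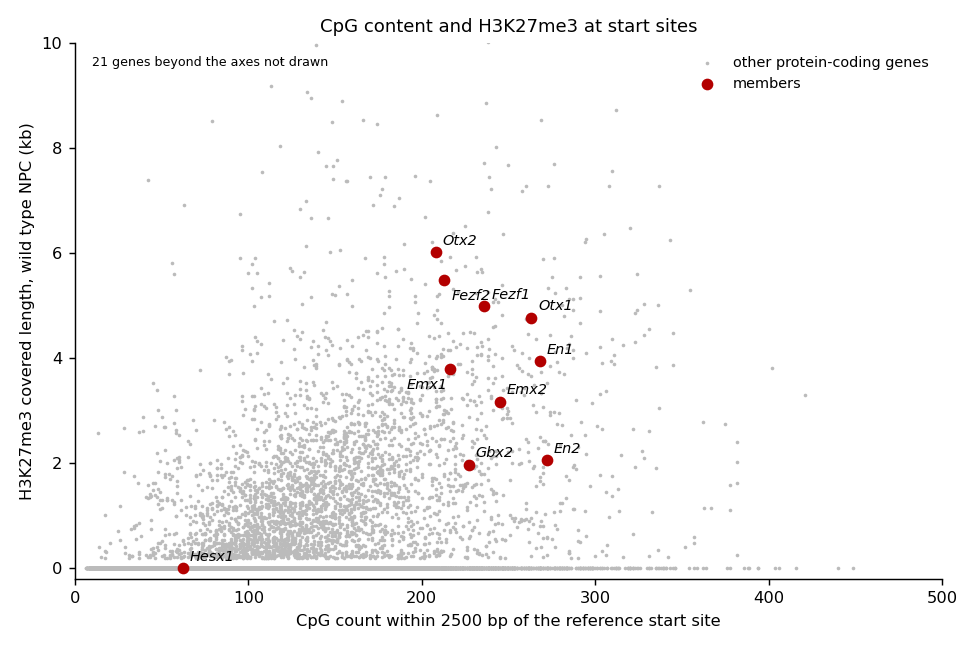
Number of CpGs within 2500 bp of the reference start site (horizontal axis, count) against H3K27me3 covered length in wild type NPC (vertical axis, kb) for protein-coding genes (grey points) and the 10 members (red points, named). Hesx1 lies at 62 CpGs and 0 bp, and the other 9 members lie between 208 and 272 CpGs and between 1974 and 6013 bp.

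Covered length at these genes was compared between shPCGF5 and wild type cells. A gene was called longer or shorter when the lengths differed at least 1.5-fold or only 1 list had a peak. In NPC, H2AK119ub1 was shorter in shPCGF5 cells at 6 of 9 members with a peak (56.1% of all genes with a peak), namely Otx1, Otx2, Emx1, Emx2, Fezf1 and Fezf2, and longer at 2 (31.7%), En1 and Gbx2. Summed over the members it covered 18002 bp in wild type and 9681 bp in shPCGF5 NPC, a log2 ratio of -0.89, against -0.92 over all genes. With a window of 1000 bp the members' ratio was 0.34 and only 2 members were shorter, and base pairs inside 1000 bp gave -0.04. Without Otx2 the members' ratio was -0.64, on an alternative chosen after the values were seen. H3K27me3 in NPC was shorter in shPCGF5 cells at 3 of 9 members (44.2%), namely Otx2, Emx1 and Fezf1, and longer at 2 (27.4%), En2 and Gbx2, of which En2 was not longer when base pairs inside the window were counted. The summed H3K27me3 went from 36192 to 28123 bp, a log2 ratio of -0.36, the same as over all genes, and without Otx2 it was -0.10. In the 2500 bp windows, and with Otx2 included, the members as a group therefore moved about as all genes did. Counted by peak centre, Otx2 made up most of their net difference in H3K27me3. In that sum, longer values at En2 and Gbx2 offset shorter ones at other members. For base pairs inside the windows, the members had 38437 bp of H3K27me3 in wild type NPC and 27601 bp in shPCGF5 NPC. Within 1000 bp the members and all genes parted. There H2AK119ub1 in NPC covered 4453 bp in wild type and 4333 bp in shPCGF5 cells at the members, against 428410 and 303642 bp over all genes.

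In ES the members differed in both directions between genotypes. H2AK119ub1 was shorter in shPCGF5 ES at 3 of 8 members (48.0%), namely Otx1, Emx1 and Fezf2, and longer at 3 (37.2%), namely En2, Gbx2 and Fezf1. The summed length was 7931 bp in wild type and 7107 bp in shPCGF5 ES, a log2 ratio of -0.16 against -0.14 over all genes. H3K27me3 was shorter at 4 of 8 members (42.2%), namely Otx1, Emx2, En2 and Fezf1, and longer at 1 (34.2%), Fezf2. The log2 ratio was -0.18 over the members and -0.18 over all genes.

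**Figure D4:**
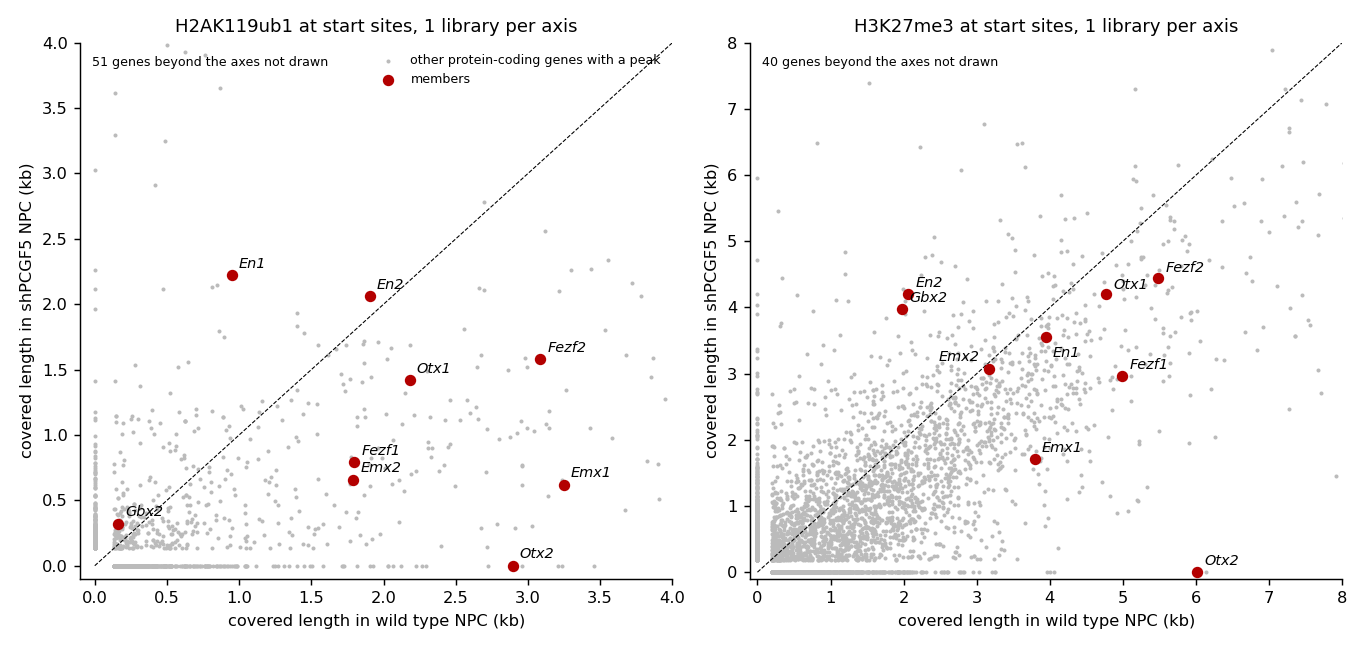
Covered length at start sites in wild type NPC (horizontal axis, kb) against shPCGF5 NPC (vertical axis, kb) for H2AK119ub1 (left) and H3K27me3 (right), with members in red and other protein-coding genes with a peak in grey, and the dashed line marking equal lengths. Otx2 lies on the horizontal axis in both panels, at 2893 and 6013 bp in wild type NPC and 0 bp in shPCGF5 NPC, and Gbx2 lies above the line in both.

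The loss of H2AK119ub1 length in shPCGF5 NPC was found in the outer part of the windows. Between 1000 and 2500 bp from a start site, H2AK119ub1 peaks covered 14094 bp of the members' windows in wild type NPC and 5372 bp in shPCGF5 NPC. Within 1000 bp the values were 4453 and 4333 bp. Over all genes the outer values were 619767 and 248129 bp and the inner ones 428410 and 303642 bp, so the outer part was also the more reduced genome-wide. For H3K27me3 in NPC the members had 19507 and 16341 bp in the outer part and 18930 and 11260 bp within 1000 bp. Over all genes the outer values were 2373636 and 2146339 bp and the inner ones 3652693 and 2577878 bp. For this mark the inner part was thus the more reduced, at the members and genome-wide.

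From ES to NPC, H3K27me3 spread over the start sites of the members in both genotypes. In wild type cells it was longer in NPC at 9 of 9 members with a peak (67.0% of genes) and shorter at 0 (22.9%), the summed length going from 9093 to 36192 bp, a log2 ratio of 1.99 against 1.43 over all genes. The ratios of members with a peak at both stages ran from 2.30 for Emx2 to 6.33 for Gbx2. In shPCGF5 cells it was longer at 7 of 8 members (64.5%), all but Emx1, and shorter at 0 (21.9%), with a log2 ratio of 1.81 against 1.25. In window share, the median over marked members was 23.3% in wild type ES and 15.8% in shPCGF5 ES, and 75.9% in wild type NPC and 68.9% in shPCGF5 NPC.

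H2AK119ub1 gave other counts in wild type than in shPCGF5 cells over the same step. In wild type cells it was longer in NPC at 6 of 9 members (38.0% of genes) and shorter at 0 (53.1%), the summed length going from 7931 to 18002 bp, a log2 ratio of 1.18 against 0.25 over all genes. In shPCGF5 cells it was longer at 2 of 8 members (29.5%), Otx1 and En2, and shorter at 1 (58.1%), Gbx2, with a log2 ratio of 0.45 against -0.53. The wild type and shPCGF5 ratios were not tested against each other.

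The marks lay on top of each other in NPC. Of the members' H2AK119ub1 peaks at start sites, 33 of 34 (97.1%, 95% Wilson interval 85.1 to 99.5, counting error only) were overlapped by an H3K27me3 peak in wild type NPC and 27 of 27 (every one, with a lower limit of 87.5%) in shPCGF5 NPC. In ES the shares were 10 of 21 (47.6%, 28.3 to 67.6) in wild type and 9 of 22 (40.9%, 23.3 to 61.3) in shPCGF5 cells. Over all start-site peaks the shares were 91.3% and 90.6% in NPC and 54.2% and 38.0% in ES, so the members followed the lists. An overlap of 1 bp sufficed. In NPC, H3K27me3 filled a median of 75.9% (wild type) and 68.9% (shPCGF5) of marked members' windows, so overlap was likely from the outset. Peaks at the same gene are not independent, so the intervals do not measure spread between genes or libraries. Peaks of the NPC genotypes were compared in both directions. Marked members were covered over a greater length than marked genes in general, so overlap between genotypes was also likelier at them from the outset. Of 32 H3K27me3 peaks of the members in shPCGF5 NPC, 31 (96.9%, 84.3 to 99.4) were overlapped by one of wild type NPC, against 67.0% of all such peaks. Of 27 H2AK119ub1 peaks, 22 were (81.5%, 63.3 to 91.8), against 50.2% of all. Conversely, 19 of 29 H3K27me3 peaks of wild type NPC (65.5%, 47.3 to 80.1) were overlapped by one of shPCGF5 NPC, against 61.6% of all, and 17 of 34 H2AK119ub1 peaks (50.0%, 34.1 to 65.9), against 31.1%. In ES, 16 of 23 H3K27me3 peaks of wild type cells (69.6%, 49.1 to 84.4) were overlapped by one of shPCGF5 cells, against 44.3% of all, and 7 of 21 H2AK119ub1 peaks (33.3%, 17.2 to 54.6), against 32.7%.

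No Flag-PCGF5 peak was called at these start sites. The ES Flag-PCGF5 list had a peak at 0 of 10 members (0.787% of genes) and the NPC list at 0 of 10 (13.7%). With only 10 genes, counts of 0 do not set the members apart from genes in general. The median fold of the NPC list was 2.22. With the gene body added, the count was 1 in ES (1.54%) and 0 in NPC (22.2%). The ES peak, chr11:21896139-21897014, was centred in a coding exon of Otx1, 6323 bp into the gene, and had a fold of 8.13. It lay in a crowded stretch. Within 2.5 Mb on either side there were 31 of the 653 ES Flag-PCGF5 peaks (4.75%), 13 of them with a fold of at least 8, and 62 of the NPC peaks, 29 with such a fold. The part of copy number or repeats in that stretch was not tested. The NPC Flag-PCGF5 peak nearest to any member was the one 3475 bp upstream of En2, with a fold of 2.27, which lay inside the wide upstream H3K27me3 peak of wild type NPC. The next was 8451 bp upstream of Gbx2, with a fold of 1.85. For the other 8 members the nearest NPC peak was 34037 bp (En1) to 1207267 bp (Fezf1) away, with 470119 bp for Otx2.

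The 32 related regulators of forebrain, midbrain and hindbrain patterning, a list that includes Pax6, Six3, Lhx2, Fgf8, Wnt1 and Shh, were measured in the same way. In wild type NPC, 27 of 32 had H3K27me3 (15.7% of all genes) and 26 had H2AK119ub1 (4.98%). A peak in all 8 histone lists was found at 19 (1.42%). Pax6, a master regulator of eye and cortex, had the longest summed length, 65695 bp, followed by Lmx1b with 46371 bp and Six3 with 46229 bp, all longer than any member. Of the 26 with H2AK119ub1 in NPC, 19 were shorter in shPCGF5 cells (56.1% of all genes with a peak) and 2 longer (31.7%). The log2 ratio was -1.15, against -0.92 over all genes. Of the 28 with H3K27me3 in NPC, 8 were shorter in shPCGF5 cells (44.2%) and 4 longer (27.4%). The log2 ratio was -0.36, the same as over all genes. In shPCGF5 NPC, 0 of these 28 lost every H3K27me3 peak (19.5% of all genes compared). Every H2AK119ub1 peak was lost at 5 of the 26 (37.0%), as at Otx2. NPC Flag-PCGF5 peaks were found at 7 of the 32 (13.7% of all genes), with highest folds per gene of 1.95 to 2.59. Among these 7 were Pax6, Wnt1, Lmx1b, Gbx1, Vax2 and Tcf7l1. By mean absolute difference in log2(covered bp + 100) over the 8 histone lists, the related gene most like Fezf2 was Lhx5 (0.48), and Gbx1 was the most like both Otx1 (0.47) and En1 (0.47).

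Peaks continued through the bodies of the members. With start-site windows and gene bodies joined there were 343 histone peaks, against 209 in the windows alone. Their centres fell in introns in 138 cases (40.2%), upstream in 96, in untranslated exons in 56 (16.3%) and in coding exons in 53 (15.5%). With the body included, H2AK119ub1 peaks were found at 7 members in wild type ES (10.8% of genes), 8 in shPCGF5 ES (9.94%), 9 in wild type NPC (6.27%) and 8 in shPCGF5 NPC (5.91%). H3K27me3 peaks were found at 8 members in wild type ES (16.9%), 8 in shPCGF5 ES (16.3%), 9 in wild type NPC (17.6%) and 8 in shPCGF5 NPC (17.6%). The added member in wild type ES was Gbx2, with 268 bp of H2AK119ub1 in its body. Covered length with the body was 56178 bp for H3K27me3 in wild type NPC and 45168 bp in shPCGF5 NPC, and 28352 and 13822 bp for H2AK119ub1. Emx1, the longest gene of the 10 with 17025 bp, went from 3793 to 10633 bp of H3K27me3 in wild type NPC when its body was added, and Otx2 stayed at 6013 bp.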

How the data were processed

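ChIP-seq peak lists of 10 of 16 libraries of mouse ES and NPC were used, grouped by their labels. Per the study's methods, chromatin was prepared for histone marks by micrococcal nuclease digestion and light fixation, with fly chromatin as a spike-in that does not enter the lists, and for Flag by fixation with EGS and formaldehyde and then sonication. The authors used Trimmomatic for trimming, Bowtie2 for alignment to mm9, Picard against duplicates, and MACS2 (version 2.1.0 per the labels) library by library. Digestion and sonication give different peak widths, and lists called separately depend on depth, which the files do not give.

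The deposited lists describe every peak by a score, its fold (a ratio to background), and the −log10 of its p-value and of its q-value, all from the authors' caller. The score of a histone peak follows the p-value and that of a Flag peak the q-value, and it served only to rank peaks of the same list. The summit position of a histone peak was used for 1 sequence.

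Start sites were those of protein-coding transcripts of GENCODE M1 on NCBIM37, the assembly of mm9. Peaks were counted by their centre, with 2500 bp allowed on either side of a start site. Genes were called by a 1.5-fold difference in covered length or a peak in 1 list only. Counts were checked on simulated peaks and against bedtools 2.31.1, with 0 of 222320 gene counts differing. Python 3.11.15, numpy 2.4.6 and pandas 2.3.3 were used. With 1 library per group no test was made. Alternatives were 7 settings for counts and lengths, and for shares of overlapped peaks an overlap of at least 50% and the higher-scoring 50% of each list. Chosen after seeing the data were base pairs inside 1000 bp and the member set without Otx2.

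The members and all lists were chosen with earlier results of these data known. Every member is named. By the rule for other genes, the text names the 3 related regulators with the longest and the shortest summed length (Pax6, Lmx1b and Six3, and Cer1, Tcf7l1 and Zic2, with 0, 0 and 257 bp) and those nearest in pattern to the 3 longest members, and other genes named were chosen after their values were seen. The related regulators were Six3, Six6, Rax, Lhx2, Lhx5, Pax2, Pax5, Pax6, Pax8, Fgf8, Fgf17, Fgf15, Wnt1, Wnt8b, Wnt3a, Lmx1a, Lmx1b, Dmbx1, Irx3, Sp8, Dkk1, Cer1, Shh, Nr2f1, Zic1, Zic2, Gbx1, Vax1, Vax2, Tcf7l1 and 2 genes that are not reported here. Markers of other germ layers (T, Mixl1, Gata4, Gata6, Sox17 and Foxa2) had H3K27me3 at 6 of 6 genes in wild type ES, wild type NPC and shPCGF5 NPC and at 5 in shPCGF5 ES.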

Additional observations from a re-analysis of the deposited data

Results flagged for a closer look

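H2AK119ub1 at Fezf1 went in opposite directions between genotypes at the 2 stages. In ES the covered length was 636 bp longer in shPCGF5 than in wild type cells, and in NPC the change was -1004 bp, so the change in NPC minus the change in ES was -1640 bp. H3K27me3 at En2 also had opposite signs, with a change of -295 bp in ES and of 2144 bp in NPC, a difference of 2439 bp between the changes. With 1 library per group neither difference was tested. The NPC value of En2 turned to -73 bp when base pairs inside the window were counted, and the NPC value of Fezf1 turned to 386 bp with a window of 1000 bp.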

How the results depend on the processing

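No paired analysis was possible because each group had 1 library and no result came from a test. Of 232 alternative values for summed lengths, counts and shares, 200 kept the direction and stayed within 1.5 times the value reported (for shares, within their interval), 31 moved further and 1 reversed. The log2 ratio of H2AK119ub1 in NPC between shPCGF5 and wild type reversed to 0.34 with a window of 1000 bp, and was -0.04 for base pairs inside that window and -1.78 in the higher-scoring 50% of peaks. The ratio for H3K27me3 in NPC was -1.26 with a window of 1000 bp, and that for H2AK119ub1 in ES -0.80 in the higher-scoring 50%. From ES to NPC, H2AK119ub1 in wild type cells gave 0.53 for base pairs inside 1000 bp, H2AK119ub1 in shPCGF5 cells 1.22 with lists cut to equal numbers of top-scoring peaks and H3K27me3 in shPCGF5 cells 1.18 with a window of 1000 bp.

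Counts of members by genotype moved as follows. H2AK119ub1 was shorter in shPCGF5 NPC at 2 members with a window of 1000 bp, and at 2 for base pairs inside it. It was longer in NPC at 1 member with any peak base counted, 0 with the gene body and 5 with 1000 bp, and longer in ES at 5 with 1000 bp. H3K27me3 was shorter in NPC at 5 with 1000 bp and in ES at 2 for base pairs inside it. It was longer in NPC at 1 member with any base, base pairs inside the window, the gene body or 1000 bp and at 0 for base pairs inside 1000 bp, and longer in ES at 2, 3 and 2 with the higher-scoring 50%, the gene body and 1000 bp. With the gene body, 1 member had an ES Flag-PCGF5 peak.

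Shares moved with an overlap of at least 50% to 18.2% (shPCGF5 ES H2AK119ub1 by H3K27me3), 14.3% and 20.6% (wild type H2AK119ub1 by shPCGF5 in ES and NPC) and 39.1% (wild type ES H3K27me3 by shPCGF5), and with the higher-scoring 50% to 43.8% (the last of these), 26.3% (wild type NPC H2AK119ub1 by shPCGF5) and 78.9% (wild type NPC H2AK119ub1 by H3K27me3).

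Differences at single genes, shPCGF5 minus wild type, reversed in 20 of 192 alternatives. With a window of 1000 bp these were 155 bp at Emx1, 386 bp at Fezf1 and 224 bp at Fezf2 for H2AK119ub1 in NPC, -139 bp at En2 and 310 bp at Fezf2 for H2AK119ub1 in ES, 271 bp at En2 and 36 bp at Otx1 for H3K27me3 in ES and -1168 bp at Gbx2 for H3K27me3 in NPC. For base pairs inside 1000 bp they were 20 bp at Emx1, 265 bp at Fezf2 and 6 bp at Otx1 for H2AK119ub1 in NPC, 28 bp at En2 and 36 bp at Otx1 for H3K27me3 in ES and -17 bp at En2 for H3K27me3 in NPC. Any base gave -765 bp at En1 (H2AK119ub1, NPC) and -1539 bp at En2 (H3K27me3, NPC), base pairs inside the window -73 bp at En2 (H3K27me3, NPC), the gene body 596 bp at En2 (H3K27me3, ES), and the higher-scoring 50% and the same number of peaks each 17 bp at Emx2 (H2AK119ub1, NPC). Except where a setting itself changes which peaks are counted, the cause was not tested. At Otx2 the differences ran from -393 to -3027 bp for H2AK119ub1 and from -1935 to -6013 bp for H3K27me3. Their sign could not turn in any alternative. The nearest shPCGF5 NPC peaks lay 80377 bp (H2AK119ub1) and 539808 bp (H3K27me3) away, so the shPCGF5 value was 0 bp throughout. Unknown depth and single libraries limit all values, since an uncalled peak may lie just under a threshold.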
